A study of Mus musculus with 19 samples.

Results

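The genes examined were those that encode the proteins of the cytosolic ribosome. They were chosen by name: a protein-coding gene was a member where its mouse symbol was Rpl or Rps with a number and at most a suffix of a, x or l, or was Rplp0, Rplp1, Rplp2 or Rpsa, and where it held at least 100 counts over the tumours used. Of the 39179 gene identifiers in the count table, 81 matched the symbol and 78 were members, 32 of the small and 46 of the large subunit. The 3 that matched but held too few counts were Rpl39l with 0 counts, Rpl10l with 11 and Rpl3l with 15. Names outside the pattern (Rps3a1, Fau, Rack1, Rpl22l1, Rpl36al, Rpl7l1 and retrocopies such as Rpl37rt) were not members. No measured contrast entered the choice apart from the total count.

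The samples were liver tumours of male mice that were heterozygous for Ctnnb1tm1Mmt, an allele that gives stabilised β-catenin after Cre, and homozygous for Gt(ROSA)26Sortm1(MYC)Djmy, a human MYC transgene at the Rosa26 locus. Each mouse had received AAV8.TBG.PI.Cre.rBG at 640000000 genome copies, a virus whose TBG promoter limits Cre to hepatocytes, so that non-hepatocyte cells of the tumours carried unrecombined alleles. Of 13 tumours, those numbered 4 to 13 were matched to a column of the count table by number, with the assumption that the number in a title is the library number; tumours 1 to 3 and the control livers were not analysed here. The tumours are 10 samples of 1 group, and the comparisons below are between tumours. In the column names tumours 7 and 8 end in a common tag, as do tumours 5 and 6, tumours 9 and 10, and tumours 11 to 13, while tumour 4 has a tag of its own. The meaning of these tags is not given, and tumours with a common tag may not be independent.

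A ribosome holds 1 copy of almost every ribosomal protein beside its RNAs, and cells keep the supply of these proteins in step. Their mRNAs are short, abundant and start with a run of pyrimidines, the terminal oligopyrimidine (TOP) tract, through which mTOR and LARP1 control their translation and stability. MYC raises transcription of ribosomal protein genes and of the factors that make and assemble ribosomes, which is why the ribosome is often studied in MYC-driven tumours. Many of these genes also left processed pseudogenes in the mouse genome, and this bears on how their reads can be counted.

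Libraries held between 11687034 counts over genes (tumour 7) and 36964427 (tumour 13), and the share set aside as not uniquely aligned was 50.4% ± 3.55 of the summed table (SD, n = 10). The hepatocyte markers Alb, Apoa1, Ttr, Hnf4a, Trf and Serpina1c summed to between 23700 and 37110 counts per 1000000 gene counts (CPM) in every tumour. Of the other cell types, red blood cell genes had the widest range, with a lowest sum of 101 CPM (tumour 13) and a highest of 6181 CPM (tumour 7); 4 of the 5 listed passed the filter on low counts. Endothelial markers ranged from 34.3 to 317 CPM, stellate cell and fibroblast markers from 174 to 1278 CPM, macrophage markers from 118 to 339 CPM and lymphocyte markers from 2.91 to 16.1 CPM. Tumour 7 was the highest in endothelial and red blood cell markers. RNAs without a poly(A) tail, which a poly(A) selection should remove, summed to 60.1, 47.1 and 83.6 CPM in tumours 5, 6 and 7 and to at most 6.46 CPM in the other 7. In bulk samples, fewer cells of a type and less RNA per cell cannot be told apart.

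The sequences of 3 pairs of genes show how far a short read can separate a ribosomal protein gene from its copies. Coding sequence was read from GRCm39, and each line gives 90 bases, with capitals at the bases where the 2 genes of a pair differ. Rpl37 encodes a zinc-binding protein of the large subunit, and its coding exons span chr15:5146164-5148115 on the forward strand. Its retrocopy Rpl37rt, at chr5:115241287-115241580 on the reverse strand, is annotated as a transcribed processed pseudogene in GENCODE M39. They differ at 1 of 291 coding bases, which lies in the stretch from base 202 to base 291.
Rpl37: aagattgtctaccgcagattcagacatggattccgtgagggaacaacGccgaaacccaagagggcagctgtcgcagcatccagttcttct
Rpl37rt: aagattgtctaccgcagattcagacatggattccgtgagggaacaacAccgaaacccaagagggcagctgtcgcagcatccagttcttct

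A pair of protein-coding paralogs stands further apart. Rps27 (coding exons within chr3:90120035-90120922, reverse strand) and Rps27l (within chr9:66853457-66856636, forward strand) differ at 60 of 252 coding bases, an identity of 76.2%. The first 90 bases hold 24 of the differences.
Rps27: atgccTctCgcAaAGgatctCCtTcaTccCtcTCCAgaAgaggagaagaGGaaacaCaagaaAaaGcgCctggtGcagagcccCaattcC
Rps27l: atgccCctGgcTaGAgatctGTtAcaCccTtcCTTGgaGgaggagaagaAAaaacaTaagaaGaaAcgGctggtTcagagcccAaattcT

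Rps4x, on the X chromosome, and Rps4l, whose coding sequence lies in 1 uninterrupted block at chr6:148256208-148256993, differ at 159 of 786 coding bases (79.8% identity). Of the differences, 27 lie in the bases 484 to 573 shown here.
Rps4x: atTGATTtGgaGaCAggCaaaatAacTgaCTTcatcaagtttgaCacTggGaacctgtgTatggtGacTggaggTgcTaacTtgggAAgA
Rps4l: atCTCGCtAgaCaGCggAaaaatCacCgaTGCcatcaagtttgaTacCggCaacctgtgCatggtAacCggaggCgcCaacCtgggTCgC

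In their coding sequence, most ribosomal protein genes resembled Rpl37 rather than Rps4l. Per the study's methods the reads were paired and 36 bases long. For each member every 36-base stretch of the spliced coding sequence was looked for in the whole GRCm39 genome. Only single stretches with exact matches were scored, so a pair that its other read could place was not taken into account. A stretch was taken as unique where the genome held no copy besides its own place, so that a stretch across an exon junction, which has no unbroken place of its own, was unique where the genome did not hold it at all. The median member had 6.14% of its coding stretches unique (n = 78), against 98.1% for 77 mitochondrial ribosomal protein genes and 95.2% for 83 respiratory chain genes. In 29 members no coding stretch was unique, and in 45 fewer than 10% were. The 7 members at 50% or more included Rpl8 (88.3%), Rps3 (83.0%), Rps4l (73.9%), Rpl4 (67.1%), Rpl39 (61.9%) and Rpl22 (50.4%). Reads are counted over untranslated exons as well. Over the whole canonical transcript, a measure added after the values were seen, the median member had 51.3% of its stretches unique, 8 members had under 10% and 40 had 50% or more, and the medians were 96.0% for mitochondrial ribosomal protein genes and 92.3% for respiratory chain genes. Rpl37 had 85.0% and Rpl29 79.6% by this measure, against 12.9% and 2.02% in the coding sequence, while Rpl23a had 6.05%.

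Members with more unique coding sequence tended to have higher counted levels, but this was not so for the whole transcript. Level was taken as mean CPM per kilobase (kb), and the share of unique coding stretches and the log2 of CPM per kb of coding sequence had a Pearson's r of 0.474 and a Spearman's rho of 0.568 across the 78 members, which are not replicates and share the same 10 libraries. With the unique share and the level both taken over the whole canonical transcript, r was -0.05 and rho -0.11. The annotated transcript length enters both of these values, so this r cannot decide whether the relation over coding sequence holds. The plot of level against uniqueness has Rpl23a and Rpl24, with no unique coding stretch, at the bottom. The 43 members under 10% unique that passed the filter on low counts had a median of 48.1 CPM. The 26 members between 10 and 50% had a median of 143 CPM, and the 7 at 50% or more had 844 CPM. Since reads without a single place were not counted, levels are compared between members only as counted reads, not as amounts of mRNA.

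**Figure D1:**
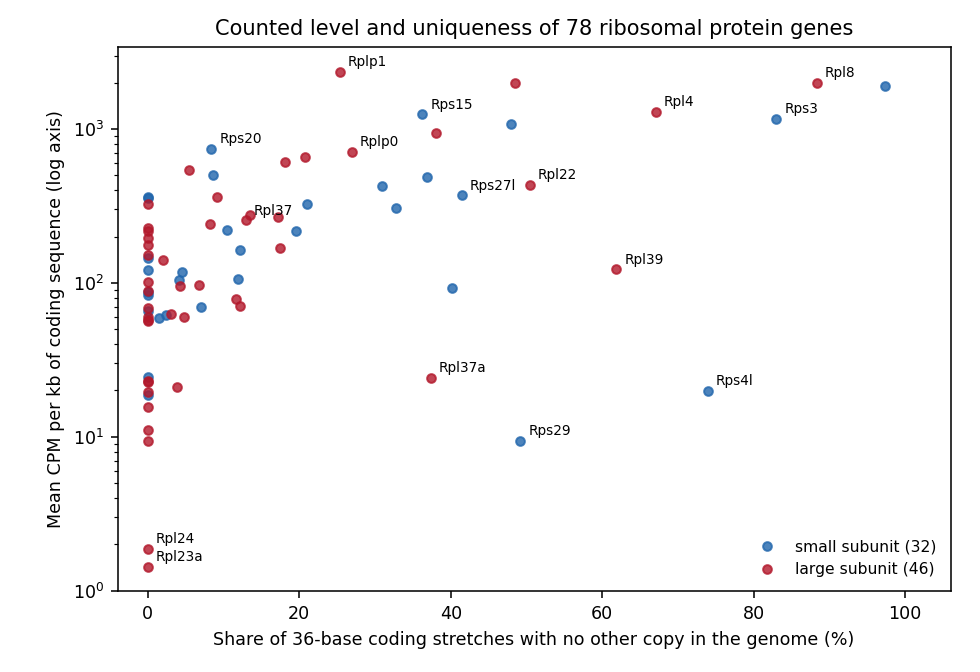
Each point is 1 of 78 ribosomal protein genes, with the share of its 36-base coding stretches with no other copy in GRCm39 on the x axis (%) and its mean CPM per kb of coding sequence over 10 tumours on a log y axis. Rpl8, Rps3 and Rpl4 sit at the upper right, Rpl23a and Rpl24 at the lower left, and Rps4l, Rps29 and Rpl37a lie below other genes of like uniqueness.

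Per kb of the annotated canonical transcript, the highest levels included those of Rplp1 at 1472 CPM per kb, Rpl8 at 1463, Rps15 at 993 and Rpl4 at 824 CPM per kb. Rps15 is a small subunit protein close to the decoding site. Rpl4 and Rpl8 are core proteins of the large subunit, and Rpl4 reaches into the exit tunnel. Rplp1 is an acidic protein of the stalk that recruits elongation factors. Rplp1 is at chr9:61913283-61914510, Rpl8 at chr15:76904071-76906318, Rps15 at chr10:80292431-80294114 and Rpl4 at chr9:64173387-64178562 (GRCm38.p6). The 5 members with the most counts held 42.1% of all member counts.

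The lowest levels per kb were those of Rpl23a at 1.19, Rpl24 at 1.29, Rpl31 at 2.05, Rpl5 at 2.69 and Rpl37a at 2.72 CPM per kb. Rpl5 binds the 5S rRNA and, together with Rpl11, can hold Mdm2. Rpl23a, with 143 counts over 10 tumours, and Rpl24, with 180, were the 2 members that did not pass the filter. The 8 pseudogenes of Rpl23a with a -ps name held 9363 counts. The annotated canonical transcript was over 2000 bases long in 12 members, Rpl31 (4122), Rpl37a (3762) and Rpl5 (3646) among them, which lowers a level per kb. Per kb of coding sequence, which was chosen after the values were seen, Rpl31 had 22.5, Rpl37a 24.0 and Rpl5 11.0 CPM per kb, and Rpl23a and Rpl24 were still the lowest at 1.43 and 1.86.

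Over all members, 58 had at least 1 -ps pseudogene in the table, 247 in all, and in 25 members these held more counts than the gene. The members summed to 1.42% ± 0.258 of the gene counts (SD, n = 10), from 1.16% in tumour 8 to 1.95% in tumour 7. All 248 ribosomal protein pseudogenes with a -ps name summed to 0.492% ± 0.0764, and the ratio of pseudogene to member counts was 0.350 ± 0.0357, between 0.300 and 0.406 in single tumours. With the pseudogene counts added to their parent genes the share was 1.91%. Some retrocopies outside the -ps names also held more counts than the parent. Rpl37rt had 124009 counts against 12649 for Rpl37, and in each tumour between 6.32 and 16.97 times the CPM of Rpl37. Rpl35rt had 36477 counts against 1452 for Rpl35.

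The members moved together between tumours. The 76 members that passed the filter were scored per tumour as their mean log2 CPM (prior count of 2). The score was 6.69 in tumour 7, 6.32 in tumour 11, 6.28 in tumour 4, 6.25 in tumour 5 and 6.05 in tumour 6. It was 6.01 in tumour 12, 5.97 in tumour 13, 5.91 in tumour 10, 5.84 in tumour 9 and 5.80 in tumour 8. The highest and the lowest tumour differed 1.86-fold, and they were the pair that share a tag. Tumours 4 to 6, whose tags begin alike, spanned 1.18-fold, and tumours 9 to 13, whose tags also begin alike, 1.40-fold.

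Tumour 7 had the highest value of 51 of the 76 members and lay above the gene's own mean in 72. Tumour 9 had the lowest value of 24, tumour 8 of 14, tumour 13 of 12 and tumour 12 of 10. In tumour 8 only 5 members lay above their own mean. Tumour 7 was also the shallowest library, with the largest share of multiply aligned reads (57.9%), the most red blood cell RNA and the most RNA without a poly(A) tail; the part of these in its high score was not tested. Without tumour 7, the score spanned 1.44-fold. Among the 7 members with 50% or more of the coding stretches unique, the median deviation on the log2 scale was 0.42 in tumour 7, 0.36 in tumour 5 and 0.35 in tumour 4, but -0.08 in tumour 11. In tumour 7 it was 0.61 among the 26 members between 10 and 50% and 0.50 among the 43 under 10%, and in tumour 11 it was 0.21 in both of these groups.

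**Figure D2:**
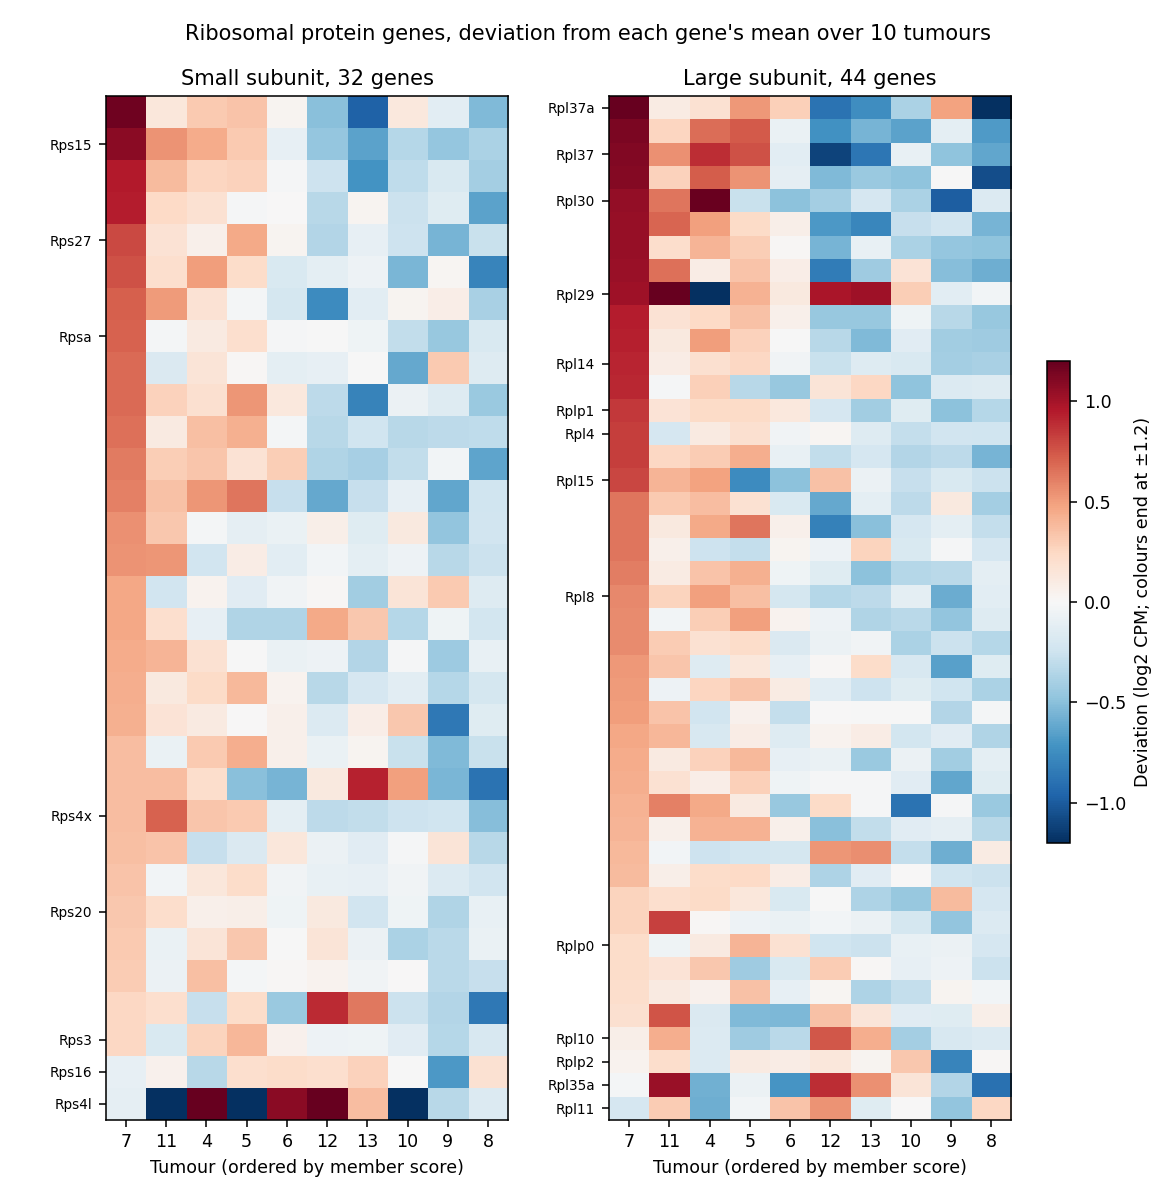
Each row is 1 of the 76 ribosomal protein genes that passed the filter, split by subunit, and each column 1 tumour in falling order of member score; colour is the deviation of log2 CPM from the gene's own mean, with colours ending at ±1.2 and labels for some of the genes named in the text. Most rows are red in tumour 7 and blue in tumours 8 and 9, while Rps4l, Rpl29, Rps16, Rpl35a, Rpl10 and Rpl11 follow other orders.

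Tumour 7 was the highest and tumour 8 the lowest for both subunits. The small subunit score was 6.73 in tumour 7 and 5.88 in tumour 8, and the large subunit score 6.66 and 5.74. The order between them differed: tumour 4 was second for the small subunit, at 6.49, and tumour 11 second for the large subunit, at 6.33, where tumour 4 had 6.13. This difference rests on 1 gene in each subunit. Rps4l deviated from its own mean by 4.45 in tumour 4 and -2.57 in tumour 11, and Rpl29 by -4.89 in tumour 4, on the log2 scale. Over pairs of members, the median Pearson's r across the 10 tumours was 0.534, and 86.8% of pairs were positive. The same median was -0.0012 over all 12462 genes, 0.196 over 74 mitochondrial ribosomal protein genes, 0.351 over 39 ribosome biogenesis genes and 0.475 over 17 other TOP mRNAs. It was higher than among the members over 25 proliferation genes (0.650), 5 macrophage genes (0.801) and 5 endothelial genes (0.863). Another measure is the share of a list's squared deviations that its mean deviation per tumour held. It was 28.0% for members, 0.451% for all genes and 18.9% for mitochondrial ribosomal protein genes. It was higher than for members in biogenesis genes (32.6%), noncoding hosts of small nucleolar RNAs (38.4%), other TOP mRNAs (42.1%) and proliferation genes (60.3%). These correlations and shares use the same libraries, were not computed without tumour 7 and are a description.

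The other TOP mRNAs, which encode elongation and initiation factors such as Eef1a1, Eef2 and Eif4b with Pabpc1 and Tpt1, were highest where the members were. Their score was 8.16 in tumour 7, 7.97 in tumour 4, 7.96 in tumour 11 and 7.90 in tumour 5, and 7.51 in tumour 9. Ribosome biogenesis genes, which encode nucleolar proteins such as Ncl, Npm1 and Fbl, had another order. Their score was highest in tumour 6 at 6.17, where the members lay at 6.05 against their mean of 6.11, and it was 5.76 in tumour 7 and 5.63 in tumour 8. The mitochondrial ribosomal protein score stayed between 4.90 in tumour 5 and 5.25 in tumour 7.

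**Figure D3:**
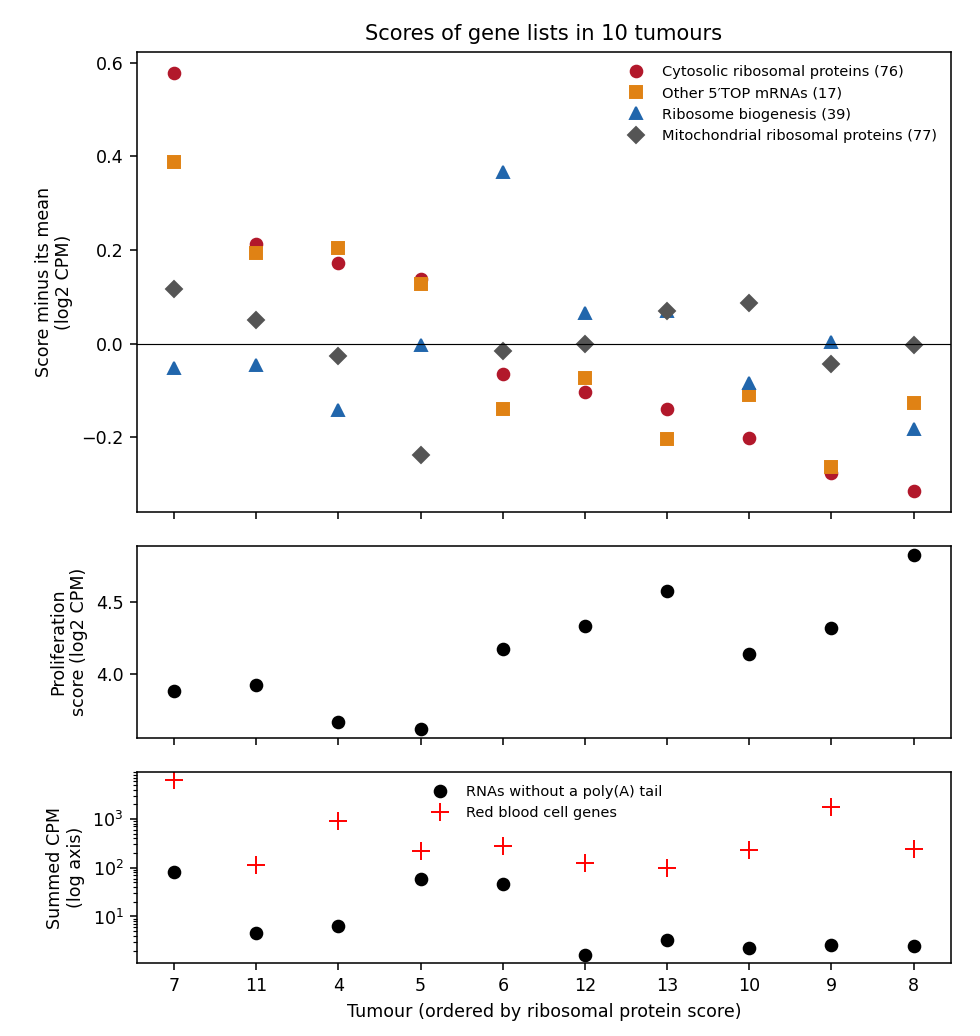
The upper panel gives the mean log2 CPM of 4 gene lists in each tumour minus the list's mean over 10 tumours, the middle panel the proliferation score (log2 CPM) and the lower panel the summed CPM of RNAs without a poly(A) tail and of red blood cell genes on a log axis; tumours are in falling order of the member score. Members and other TOP mRNAs are highest in tumour 7, biogenesis genes in tumour 6, and the proliferation score is highest in tumour 8, where the member score is lowest.

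The spread of a member between tumours was measured as the SD of its log2 CPM. The median SD was 0.38 over the 76 members, against 0.33 over all 12462 genes, 0.22 over mitochondrial ribosomal protein genes, 0.25 over respiratory chain genes and 0.24 over ribosome biogenesis genes. Over the 5571 other genes at or above the members' lower quartile of mean log2 CPM it was 0.29. The order of members and all genes rested on tumour 7. Without it the median SD was 0.32 over members and 0.33 over all genes, but 0.28 over the genes above the members' lower quartile, while mitochondrial ribosomal protein genes stood at 0.21 and biogenesis genes at 0.24. Counting error was smaller than this spread: the SD was over 2 times that expected from counting in 75 of 76 members.

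Among the steadiest members were Rps20, Rps15a, Rpl9 and Rplp0, with SDs of 0.20, 0.21, 0.21 and 0.22. Rplp0, the base of the stalk and a common reference gene for quantitative PCR, had 676 ± 108 CPM (SD, n = 10). Its values were 719, 888, 759, 781, 580, 638, 629, 647, 566 and 559 CPM in tumours 4 to 13. The 4 highest values of Rplp0 were those of tumours 4 to 7.

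The most variable members were Rps4l, Rpl29, Rpl37a, Rpl37 and Rpl30, with SDs of 2.05, 1.79, 0.85, 0.78 and 0.71. Rpl37a ranged from 3.62 CPM in tumour 8 to 28.1 CPM in tumour 7. Rpl30 ranged from 12.1 CPM in tumour 9 to 55.1 CPM in tumour 4. Rpl37 had 120, 110, 59.5, 141, 42.3, 46.5, 61.0, 95.4, 29.98 and 35.6 CPM in tumours 4 to 13. Tumours 4, 5, 7 and 11 were the 4 highest for Rpl37, as they were for the score.

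Rpl29, a small basic protein of the large subunit that mice can live without, was nearly missing from 1 tumour. It had 1.54 CPM in tumour 4, from 22 counts, and 65.2, 52.9, 98.9, 47.8, 44.7, 59.8, 113, 96.2 and 98.8 CPM in tumours 5 to 13. The value of tumour 4 was 42.2-fold below the median of the other 9, which themselves spanned 2.52-fold. Rpl29 lies at chr9:106428889-106431568 (GRCm38.p6). Of the 8 other genes above a mean of 1 CPM that start within 150000 bases of it, 7 had a value in tumour 4 inside the range of the other tumours, among them Acy1 at 28.2 CPM against 19.5 to 39.9. The exception, Poc1a, had 5.41 CPM against 6.19 to 11.2. The 3 Rpl29 pseudogenes held 130 counts over all tumours against 14514 for the gene. Of the stretches of Rpl29, 2.02% were unique in the coding sequence and 79.6% in the whole transcript.

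Rps4l was high in the same tumour. It had 111 CPM in tumour 4, from 1580 counts, and 1.15, 10.7, 4.62, 4.44, 3.93, 1.15, 0.757, 12.6 and 6.46 CPM in tumours 5 to 13. Tumour 4 was 24.96-fold above the median of the others, which spanned 16.6-fold among themselves. Its parent Rps4x had 113 CPM in tumour 4 and between 62.9 and 147 CPM in the others, so that the copy and the parent were counted almost equally in tumour 4 (ratio 0.981) and the copy at a median ratio of 0.0611 over all 10. Rps4l lies at chr6:148354656-148355596 (GRCm38.p6), and no other gene above a mean of 1 CPM starts within 150000 bases of it. With 73.9% of its coding stretches unique, its reads could be told from those of Rps4x. Neither gene's value in tumour 4 has a replicate.

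**Figure D4:**
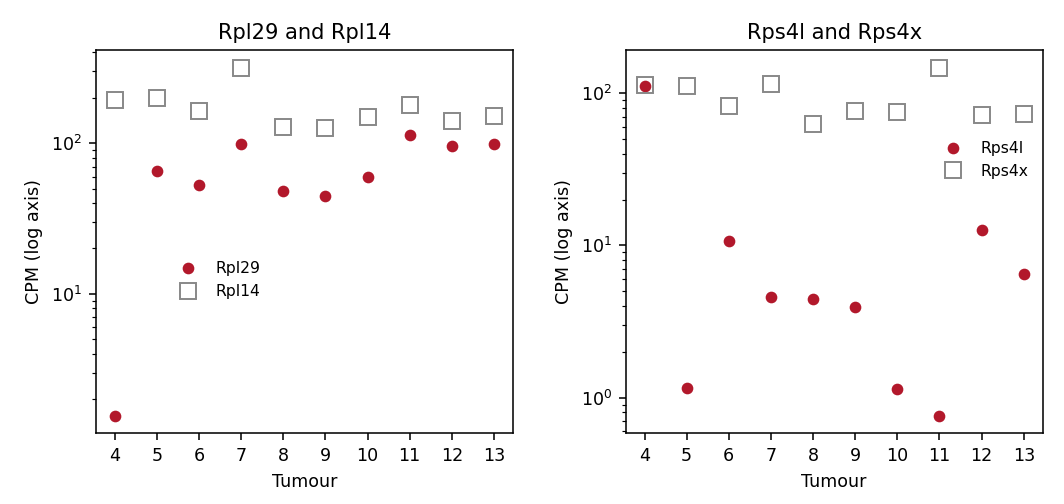
CPM on a log axis in tumours 4 to 13 for Rpl29 with Rpl14, another large subunit gene on chromosome 9, and for Rps4l with its parent Rps4x. In tumour 4, Rpl29 drops to 1.54 CPM while Rpl14 stays at 192 CPM, and Rps4l rises to 111 CPM beside Rps4x at 113 CPM.

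Other paralogs shifted less. Rps27l, which p53 is known to induce, had 93.4 ± 17.3 CPM against 90.9 ± 27.6 for Rps27 (SD, n = 10), and the ratio of Rps27l to Rps27 ran from 0.698 in tumour 5 to 1.92 in tumour 9. No coding stretch of Rps27 was unique (35.9% over its whole transcript), against 41.5% of the coding stretches of Rps27l. The ratio of these 2 genes is one of counted reads and does not compare the amounts of mRNA. Rpl22l1, the copy of Rpl22, had 30.1 ± 9.35 CPM against 166 ± 43.3 for Rpl22, with a ratio between 0.0993 in tumour 5 and 0.326 in tumour 13. Rpl7l1 had 71.1 ± 13.1 CPM against 223 ± 49.8 for Rpl7, with a ratio between 0.191 in tumour 5 and 0.4997 in tumour 9. Rpl36al exceeded Rpl36a in all 10 tumours, 5.32-fold to 12.5-fold, but no coding stretch of Rpl36a was unique, so this ratio does not compare the amounts of mRNA. Rpl39, Rpl10 and Rpl3 were counted at 29.01 ± 8.76, 113 ± 34.6 and 75.96 ± 14.7 CPM, while their tissue-restricted copies Rpl39l, Rpl10l and Rpl3l were at or near 0. Rpl39l held 0 counts in every tumour, which allows up to between 0.0767 and 0.277 CPM per tumour (3 counts, counting error only).

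Rplp1 had 805 ± 250 CPM and was highest in tumour 7 at 1399 CPM and lowest in tumour 9 at 552.5 CPM. Rplp2, its partner in the stalk dimer, had 211 ± 37.6 CPM and was also lowest in tumour 9, at 120 CPM, while the other 9 lay between 186 and 260 CPM. Rpsa, a small subunit protein that is also known as a laminin receptor, had 129 ± 31.2 CPM, with 91.6 in tumour 9 and 206 in tumour 7.

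Members also differed from each other by chromosome. For each tumour and chromosome, the median deviation of the members, after taking away the median deviation of all members in that tumour, was set beside that of the other genes of the chromosome. In 19 of 190 pairs of tumour and chromosome the other genes had shifted by at least 0.2 on the log2 scale, and in 18 of these the members had shifted the same way. Over all 190 pairs the shifts of members and of other genes had the same sign in 135 and a Pearson's r of 0.416. Among the 110 pairs with at least 3 members, r was 0.745 (a description over pairs that share libraries), and all 15 with a large shift had the same sign. On chromosome 15, which carries Rpl3, Rpl8, Rpl30 and Rpl37 and also Myc, the other genes stood at 0.30 in tumour 4 and the members at 0.49. On chromosome 10 in tumour 13 the other genes stood at -0.34 and the 4 members at -0.54. On the X chromosome in tumour 11 the other genes stood at 0.25 and the members, Rpl10, Rpl36a, Rpl39 and Rps4x, at 0.46. Whether the tumours carried gains or losses of these chromosomes was not measured.

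Whether member levels followed ribosome biogenesis, proliferation, Myc or RNA without a poly(A) tail was tested in edgeR's quasi-likelihood fit over all genes, with each of these as a continuous covariate. A slope is the log2 change of a gene per log2 unit of the covariate, and a gene was called at a Benjamini-Hochberg adjusted p under 0.05 over all genes tested. No member was called in any of the 4 fits, in either direction. The background was 0% of 12423 genes for biogenesis, 0% of 12437 for proliferation and 0% of 12461 for Myc in both directions, and for RNA without a poly(A) tail 0.0161% of 12460 (2 identifiers without a gene symbol) for higher and 0% for lower. With so few calls over all genes, the absence of called members says little about them.

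Proliferation, the mean log2 CPM of 25 cell cycle genes such as Mki67 and Top2a, had slopes below 0 in 68 of 76 members. The median slope was -0.53 over members and -0.02 over all genes. At an unadjusted p under 0.05, 39 members (51.3%) and 540 of all genes (4.34%) were lower with more proliferation, and no member was higher. DESeq2's Wald test called 6 members lower, among them Rpl6, Rpl17, Rpl19, Rpl37 and Rps4x, and 0 higher, beside a background of 0.105% (13 genes lower); limma-trend called 0 genes. The smallest adjusted p of a member in edgeR was 0.17, for Rpl37, whose slope was -1.70 ± 0.33 (SE). When tumours 5 and 8, whose proliferation scores lay farthest from the median, were left out, 30 members had an unadjusted p under 0.05 with a slope below 0. With any 1 tumour left out, this number lay between 33 and 39.

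RNA without a poly(A) tail gave the opposite picture. This covariate was the mean log2 CPM of the 4 listed genes with counts, of which only 2, Rmrp and Rpph1, passed the filter. It was -1.55 in tumour 10 and 1.48 in tumour 7, where the summed CPM of the list were 2.29 and 83.6. A log2 unit of the covariate is therefore not a log2 unit of that sum. In this fit 68 of 76 members had slopes above 0, with a median of 0.18 over members and 0.00 over all genes, and 39 members (51.3%) had an unadjusted p under 0.05 with a slope above 0, against 843 of all genes (6.77%). DESeq2 called 10 members higher, Rpl14, Rplp1 and Rps27 among them, beside a background of 0.77% (96 genes higher), and limma-trend called 0 members and 2 genes. Markers of other cell types had slopes of the same sign: the median was 1.02 over 4 red blood cell genes (unadjusted p from 0.0095 for Hba-a1 to 0.049 for Hbb-bs), 0.67 over 5 endothelial genes (unadjusted p of 0.0022 for Stab2) and 0.28 over 5 macrophage genes. None of these was called, and their part in the members' slopes was not tested. With the tag family (the 3 sets of tumours whose tags begin alike) as a further term, 20 members had an unadjusted p under 0.05 with a slope above 0, and the smallest adjusted p of a member was 0.87 instead of 0.20. This fit depended on 2 tumours: 14 members had an unadjusted p under 0.05 without tumour 7, and without tumours 5 and 7, 62 members still had slopes above 0 but none had an unadjusted p under 0.05. The proliferation score and the score of RNA without a poly(A) tail opposed each other over the tumours (Pearson's r = -0.562, a description over 10 tumours), so the 2 relations cannot be fully told apart. With RNA without a poly(A) tail as a further term, 66 members had slopes below 0 on proliferation and 13 had an unadjusted p under 0.05.

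Mouse Myc, in whose count reads of the human transgene may take part, had slopes below 0 in 63 of 76 members, with a median of -0.25 over members and -0.02 over all genes. Only 5 members had an unadjusted p under 0.05, Rpl15, Rpl27a, Rpl30, Rps4l and Rpl23, all lower with more Myc, a share of 6.58% beside 5.38% of all genes. Rpl15 had the smallest adjusted p of a member, 0.11 in edgeR at a slope of -1.29 ± 0.25 (SE), and it was the 1 member that DESeq2 called, 1.32% of the members beside a background of 0.586% (73 genes lower); limma-trend called 0 genes. Markers of other cell types also had slopes below 0 on Myc, with medians of -3.52 over 4 red blood cell genes (unadjusted p of 0.0072 for Alas2), -0.73 over 5 macrophage genes (0.012 for Adgre1), -0.75 over 4 stellate and fibroblast genes and -0.39 over 5 endothelial genes, as did hepatocyte markers at -0.51. Their part in the members' slopes was not tested. Without tumours 4 and 5, which had the lowest and highest Myc, 36 members had an unadjusted p under 0.05 and a slope below 0, and without tumour 5 alone 32. The negative slopes on Myc rested on tumour 7: without it 38 members had slopes below 0 and 38 above, with a median of -0.0049. The ribosome biogenesis score had slopes below 0 in 58 of 76 members, with a median of -0.26 against -0.03 over all genes, and 0 members in either direction, against 311 genes higher and 357 lower, had an unadjusted p under 0.05. DESeq2 and limma-trend also called 0 members. Without tumour 7, 46 members had slopes below 0 on biogenesis, with a median of -0.06, and without tumour 8 there were 67, with a median of -0.63. Without tumours 6 and 8, which lay farthest from the median biogenesis score, the median slope was -1.88 over members and 0.09 over all genes, and 4 members were lower and 1 higher at an unadjusted p under 0.05. With RNA without a poly(A) tail as a further term the median over members was -0.76, and 12 members were lower at that p. Scaled by total counts alone, the median slope on biogenesis moved from -0.03 to 0.18 over all genes and from -0.26 to -0.61 over members.

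**Figure D5:**
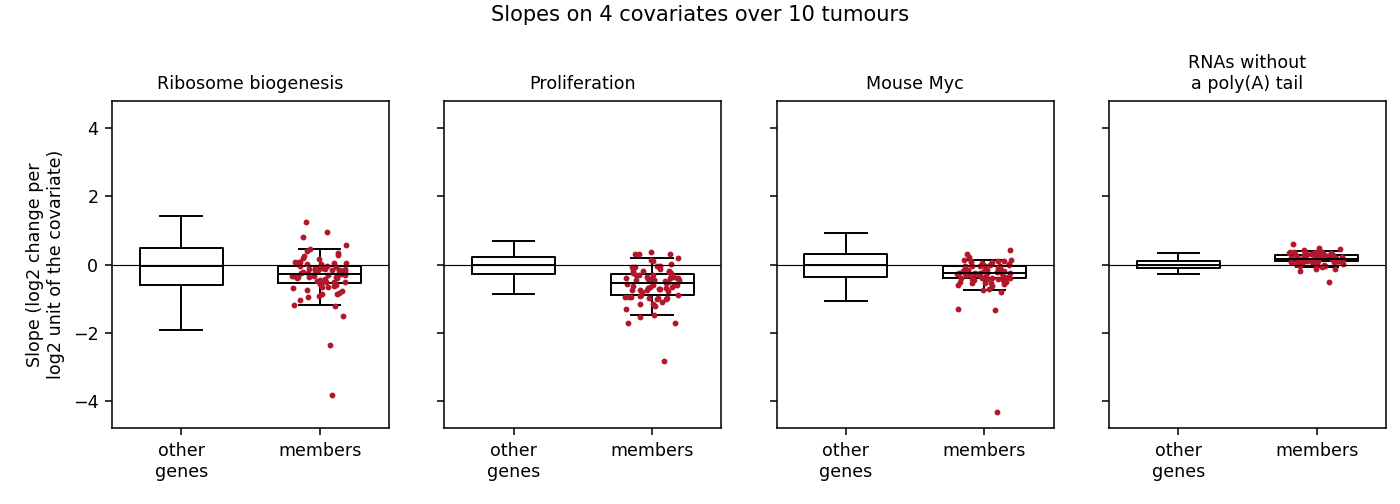
Slopes of genes (log2 change per log2 unit of the covariate) in 4 fits over 10 tumours, for genes that are no members (boxes with whiskers at the lowest and highest 5%) and for 76 members (boxes and points). Member slopes lie mostly below 0 for proliferation (68 of 76) and Myc (63 of 76, but 38 of 76 without tumour 7) and mostly above 0 for RNA without a poly(A) tail (68 of 76).

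None of the 17 fixed lists held a called gene in these 4 fits. On proliferation, the median slope was -0.39 over 17 other TOP mRNAs, -0.42 over 8 noncoding hosts of small nucleolar RNAs, -0.12 over 6 ribosomal proteins under other names, 0.08 over 39 biogenesis genes, 0.04 over 10 assembly factors, -0.01 over 11 genes of TOP control, 0.11 over 74 mitochondrial ribosomal protein genes and -0.07 over 76 respiratory chain genes. Markers of other cell types had slopes below 0 as well, with medians of -3.06 over 4 red blood cell genes, -1.08 over 5 endothelial, -0.61 over 5 macrophage and -0.22 over 4 stellate and fibroblast genes, and RNAs without a poly(A) tail had -4.04 over 2 genes. Hepatocyte markers had 0.31 over 6 genes. The part of these in the members' slopes was not tested. Other TOP mRNAs had a median of the same sign as the members, and mitochondrial ribosomal protein genes of the opposite sign.

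The start sites of members were examined because the members moved together. RefSeq start-site sequences (GRCm38.p6) were matched for 57 of the 78 members. In the 30 bases from 10 before to 20 after the start, a run of at least 8 C or T on the gene's strand was present in 20 of the 57 (35.1%) and in 11.2% of 27025 promoters. The windows of the 4 members with the longest runs, of 17 to 20 bases, are shown with that of Rplp2, whose run has 10, and that of Rplp0, where no run reaches 8; capitals mark the longest run of each.
Rpl27a, chr7:109519185-109519214, forward strand: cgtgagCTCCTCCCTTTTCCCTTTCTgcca
Rpl35, chr2:39005112-39005141, reverse strand: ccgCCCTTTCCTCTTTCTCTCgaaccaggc
Rpl15, chr14:18270967-18270996, reverse strand: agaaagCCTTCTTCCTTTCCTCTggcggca
Rpl7a, chr2:26910797-26910826, forward strand: CTCTTCTTTCTTTCTCCagcagccgagcaa
Rplp2, chr7:141447641-141447670, forward strand: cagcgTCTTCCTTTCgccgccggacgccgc
Rplp0, chr5:115559457-115559486, forward strand: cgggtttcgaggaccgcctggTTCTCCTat

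In the 300 bases around the start, CACGTG, the palindromic E-box that MYC can bind, was present in 5 of the 57 members (8.77%) and in 7.24% of all promoters. CCGGAAG on either strand, a core that ETS factors such as GABP can bind, was present in 23 (40.4%) and in 9.12%. A match is a description of these letters and not of binding.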

How the data were processed

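Poly(A) RNA of mouse liver tumours was sequenced; per the study's methods, a stranded mRNA kit and paired reads of 36 bases were used. The authors deposited raw read counts per gene, with 39179 identifiers and 5 summary lines. The submitters' processing notes name TopHat2, HTSeq and GRCm38; the study's methods name other tools, and versions and counting options are not given in the sources used here. Reads aligned to more than 1 place stand outside the gene counts. Of 19 columns, 9 could not be matched to a sample and were not used.

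Symbols came from GENCODE M39 (34199 identifiers), positions and start sites from RefSeq GRCm38.p6. Counts were scaled by TMM and fitted in edgeR 4.0.16 (R 4.3.3) after filterByExpr (12462 genes), with limma 3.58.1 and DESeq2 1.42.0 as alternatives; other steps used Python 3.11.15, pandas 2.3.3 and matplotlib 3.10.9. The fit on proliferation was tested on simulated data with 200 changed genes. It called 14% of the genes with a slope of 1 in either direction, 73% at a slope of 2 and 0.0571% of the unchanged genes. Slopes between 0 and 1 were not simulated. Standard errors were derived from the slope and its F statistic. Members, gene lists and tests were chosen with earlier results of these data known. Members were named by a fixed rule: the 5 highest and 5 lowest levels per kb, the 5 largest and 5 smallest SDs, paralog pairs, stalk genes with Rpsa, and members with an isolated tumour; others, such as those that DESeq2 called, were named after their values were seen. Some genes that the rule names are not reported here. The paper describes heterogeneity both between tumours and between mice. The sources used here do not say which tumours came from the same mouse, so p-values measure the spread between these samples. Counts give no interval for alignment error, and floors cover counting error only.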

Additional observations from a re-analysis of the deposited data

Results flagged for a closer look

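In 5 members reported here, of 78 tested, 1 tumour stood apart from the other 9 by more of the range than Dixon's 95% critical value for 10 samples allows, on the log2 scale; about 1 in 20 groups does so by chance. The lowest tumour was isolated in Rpl29 (tumour 4, gap of 0.782 of the range) and Rplp2 (tumour 9, 0.564). The highest tumour was isolated in Rpl4 (0.571), Rpl14 (0.501) and Rplp1 (0.4661), each time tumour 7. The share of gene counts held by ribosomal protein pseudogenes was isolated in tumour 7 as well, with a gap of 0.576 of the range. Rps4l, with 111 CPM in tumour 4, did not pass, with a gap of 0.446 of its range.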

How the results depend on the processing

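No member was called by edgeR against any of the 4 covariates under median-of-ratios scaling, total counts alone, TMM factors computed without ribosomal protein genes, no filter on low counts, limma-trend, the tag family as a further term, RNA without a poly(A) tail as a further term (3 covariates), or without the 2 tumours farthest from the covariate's median; leaving out each tumour in turn gave 0 to 0 calls of members. Over all genes, 107 were called against Myc without tumour 4 and 261 against RNA without a poly(A) tail without tumour 7, where the smallest adjusted p of a member was 0.054 and 0.13; in each of the other fits with 1 tumour left out at most 11 genes were called. DESeq2 called 6 members against proliferation, 1 against Myc and 10 against RNA without a poly(A) tail, among 62, 210 and 181 genes called in either direction, and 0 members among 15 genes against biogenesis; the cause was not tested. The member share was 1.91% with pseudogene counts added and ran from 1.36% (without tumour 7) to 1.45% with single tumours left out. The median SD ran from 0.32 (without tumour 7) to 0.39, and the fold range of the score from 1.44 (without tumour 7) to 1.90. SDs of 32 named members stayed within 1.5 times under both other scalings. Levels per kb moved by more than their SD in 25 of 32 with the length of all exons and in 27 of 32 with coding length, which was added after seeing the data. The tumours form 1 group, so no paired comparison of groups was made. The tag family was the only grouping fitted, and single tags were not. Rpl23a and Rpl24 had the fewest counts of the members, 143 and 180, and no unique coding stretch. The relation of level to unique sequence across members, r = 0.474 over coding sequence, was -0.05 over whole transcripts, a measure added after seeing the data. Transcript length enters both values of this measure, so it cannot decide on the relation over coding sequence.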
